A study of Mus musculus with 21 samples.

Results

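The genes of the major histocompatibility complex (MHC, called H2 in the mouse) and of antigen presentation were followed through mouse livers with a deletion of Ezh1, of Ezh2 in hepatocytes, or of both. They were taken by name: every entry whose symbol starts with H2-, plus B2m, Tap1, Tap2, Tapbp, Psmb8, Psmb9, Cd74, Ciita and Nlrc5. That gave 51 of the 22520 entries of the deposited expression table. Polycomb repressive complex 2 silences genes by methylating histone H3 at lysine 27, and either Ezh1 or Ezh2 serves as its enzyme.

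Liver RNA-seq was compared in 4 genotypes, each in 3 conditions, so there were 12 groups. The WT group was Ezh2fl/fl without Cre, E1KO was Ezh1-/-, E2KO was Ezh2fl/flAlb-Cre, and DKO was Ezh1-/-Ezh2fl/flAlb-Cre. Alb-Cre acts in hepatocytes, so the other cells of the liver keep Ezh2, whereas Ezh1 is lost from every cell. Untreated livers were taken at an age of 2 or 8 months, and treated livers at 3 months after carbon tetrachloride (CCl4, a toxin that injures hepatocytes). CCl4 was injected intraperitoneally at 2 ml/kg, 2 times a week for 2 weeks, and livers were taken 24 h after the last dose. The CCl4 groups therefore differ from the 2-month groups in age as well as in treatment. All groups were of a mixed 129SV::FVB/N::C57BL/6 background. Sample titles name 3 replicates a group (2 at 8 months), but the table holds 1 value per gene and group, in FPKM (fragments per kilobase of gene, scaled to the size of the library). No spread between animals can be had from it. In the sentences of values below, the order is always WT, E1KO, E2KO and DKO.

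MHC class I molecules are heavy chains paired with beta-2-microglobulin (B2m) that show peptides from inside the cell to CD8 T cells. The proteasome cuts the peptides, the TAP transporter carries them into the endoplasmic reticulum and tapasin helps load them. The classical heavy chains, H2-K1 and H2-D1, are made by nearly all cells, while the non-classical chains of the Q, T and M groups have narrower expression or special ligands. Class II molecules are made mainly by macrophages, dendritic cells and B cells and show peptides from taken-up material to CD4 T cells. Nlrc5 and Ciita are the transactivators of class I and class II genes. In the liver, Kupffer cells and other immune cells carry most class II, and hepatocytes carry class I.

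Some class I heavy chain genes resemble each other closely in the sequences before their start sites, and others do not. The 250 bases before the start are shown for the classical pair and for the Q-group genes H2-Q2, H2-Gs10 and H2-Q6. Also shown are those of H2-Q10, a neighbour that did not move with these Q-group genes, and of the class II gene H2-Eb1. They are RefSeq sequences of the GRCm38.p6 assembly, printed 5′ to 3′ on the strand of the gene. Capitals mark matches, on either strand, to the kappaB core of class I enhancer A (GGGATTCCC), the X2 box (TGACGC), the Y box (ATTGG, or CCAAT on the other strand) or the core of the interferon-stimulated response element (GAAANNGAA).
H2-K1, chr17:34000334-34000583, minus strand: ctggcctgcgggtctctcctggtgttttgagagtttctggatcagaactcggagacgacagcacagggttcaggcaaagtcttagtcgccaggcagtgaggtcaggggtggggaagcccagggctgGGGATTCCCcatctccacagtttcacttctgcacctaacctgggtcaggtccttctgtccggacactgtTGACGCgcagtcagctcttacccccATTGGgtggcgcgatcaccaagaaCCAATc
H2-D1, chr17:35262844-35263093, plus strand: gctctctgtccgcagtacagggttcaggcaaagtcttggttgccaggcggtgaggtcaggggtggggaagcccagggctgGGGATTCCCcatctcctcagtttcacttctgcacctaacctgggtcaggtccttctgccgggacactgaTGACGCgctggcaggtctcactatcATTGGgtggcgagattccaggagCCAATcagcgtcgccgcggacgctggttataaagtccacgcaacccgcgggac
H2-Q2, chr17:35342057-35342306, plus strand: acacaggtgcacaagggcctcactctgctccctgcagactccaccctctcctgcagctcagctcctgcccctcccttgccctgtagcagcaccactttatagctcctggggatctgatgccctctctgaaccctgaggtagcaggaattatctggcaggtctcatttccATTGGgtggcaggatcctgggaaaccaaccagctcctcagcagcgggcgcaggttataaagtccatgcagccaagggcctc
H2-Gs10 (H2-Q4 in RefSeq), chr17:35379367-35379616, plus strand: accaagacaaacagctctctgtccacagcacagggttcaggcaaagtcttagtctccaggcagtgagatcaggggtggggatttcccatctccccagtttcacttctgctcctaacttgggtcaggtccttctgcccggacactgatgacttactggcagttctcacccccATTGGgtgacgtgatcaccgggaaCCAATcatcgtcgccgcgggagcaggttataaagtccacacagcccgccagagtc
H2-Q6, chr17:35424600-35424849, plus strand: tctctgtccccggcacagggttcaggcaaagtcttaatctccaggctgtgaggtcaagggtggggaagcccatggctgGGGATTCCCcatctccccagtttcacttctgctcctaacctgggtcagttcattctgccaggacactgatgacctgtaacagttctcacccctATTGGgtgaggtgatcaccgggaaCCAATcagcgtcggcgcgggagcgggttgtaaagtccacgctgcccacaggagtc
H2-Q10, chr17:35469839-35470088, plus strand: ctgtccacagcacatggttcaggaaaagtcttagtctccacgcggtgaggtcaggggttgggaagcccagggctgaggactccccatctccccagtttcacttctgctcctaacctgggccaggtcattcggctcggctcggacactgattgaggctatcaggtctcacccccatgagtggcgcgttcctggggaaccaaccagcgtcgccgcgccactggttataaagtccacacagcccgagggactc
H2-Eb1, chr17:34305617-34305866, plus strand: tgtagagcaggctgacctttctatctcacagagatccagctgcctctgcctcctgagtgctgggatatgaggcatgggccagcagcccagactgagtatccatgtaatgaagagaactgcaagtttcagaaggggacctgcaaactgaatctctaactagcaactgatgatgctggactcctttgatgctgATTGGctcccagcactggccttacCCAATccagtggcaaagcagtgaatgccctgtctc

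Of the 51 entries, 37 have at least 1 such RefSeq window and H2-Q1 is not among them. The kappaB core was found in 0.301% of all 32851 RefSeq windows and in those of 4 of the 37 genes, H2-K1, H2-D1, H2-Q6 and H2-Q7. The X2 letters were in 6.12% of all windows and in those of H2-K1, H2-D1 and H2-M3. The Y box letters were in 33.8% of all windows and in those of 32 of the 37 genes, and the interferon element core in 7.13% of all windows and in those of B2m, H2-T22 and H2-T23. The H2-Q10 window held no match to these 4 letter runs, although it was 80.4% identical to that of H2-D1. The windows of H2-D1 and H2-Q6 were 82.0% identical, those of H2-Gs10 and H2-Q6 78.4%, those of H2-Q6 and H2-Q7 70.7% and those of H2-D1 and H2-K1 63.2%. Some other pairs had lower shares, at 56.8% for H2-Q2 and H2-Q6, 56.5% for H2-K1 and H2-M3 and 49.5% for H2-T22 and H2-T23. Over all pairs of class I windows, shares ran from 45.7% for H2-K1 and H2-M9 to 92.0% for H2-M1 and H2-M9. No windows outside class I were aligned, so the share of unrelated windows is not known. Each share is of the whole alignment, gaps and overhanging ends included, such as 205 of 290 positions for H2-Q6 and H2-Q7. Windows whose listed starts are offset therefore score below the likeness of the stretch they share. The H2-K1 window, for example, stops just after its CCAAT, while that of H2-D1 runs on. The shares are thus no ranking of sequence likeness. Such matches describe the letters of the reference only. Only exact letter runs were searched, so a window without a match may still hold a variant form of the same element.

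Reads of near-identical copies can be assigned to the wrong one, and inbred strains differ in the sequence and number of their class I genes. The assembly named in the submitters' notes is mm9, a C57BL/6 genome, while the animals also carried 129SV and FVB/N alleles. Values of single class I genes are therefore uncertain, and the part played by mapping was not tested.

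The columns were checked against their labels. Ezh1 stood at 2.94% to 13.2% of the WT value of its condition in the columns labelled E1KO and DKO, except at 43.1% in the 8-month column labelled E1KO. That column also held 453.75 FPKM over 12 skeletal muscle genes, against 1.29 to 1.97 FPKM in the other 11 columns, and the main E1KO and additivity values are also given without it. Ezh2, which other cells keep, was at 1.11, 0.80, 0.84 and 0.74 FPKM at 2 months, at 0.91, 0.78, 0.79 and 1.27 FPKM at 8 months and at 5.68, 4.68, 3.92 and 2.51 FPKM with CCl4. The 8-month DKO column thus lay above WT, so its Ezh2 value does not show the deletion, and whole-liver RNA cannot check a loss limited to hepatocytes. Summed over 11 hepatocyte genes, the columns held 10849 to 21953 FPKM, lowest in WT with CCl4 and highest in WT at 2 months. The DKO sum was 0.778 times that of WT at 2 months, 0.848 times at 8 months and 1.86 times with CCl4.

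Of the 51 entries, 32 reached 1 FPKM in at least 2 columns and entered the tests, and 18 were below 1 FPKM in every column. Without counting the DKO columns, 29 pass the same filter, so H2-Q2, H2-T24 and H2-Bl were tested only because of them. The tested genes were the classical pair, 12 of 25 non-classical class I genes (7 of 7 Q, 4 of 6 T and 1 of 12 M), 5 of 10 class II genes, Cd74 and all 6 genes of B2m and peptide loading. The others were Nlrc5, 3 further class I entries (H2-K2, H2-Bl and H2-Gs10) and 2 entries named only for their place beside H2-K. H2-Gs10 is H2-Q4 in RefSeq and is described with the Q group. Because of its symbol, it is not among the 7 Q genes in the counts and medians. In every column B2m was the most abundant member (2326 to 4875 FPKM), followed by H2-Q10 (1222 to 2065 FPKM), H2-K1 (482 to 1007 FPKM) and H2-D1 (209 to 472 FPKM).

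In DKO against WT, 1 tested gene of the set passed the threshold, the Q-group gene H2-Q1. A genotype was compared with WT across the 3 conditions with limma on log2(FPKM+1), with Benjamini-Hochberg adjustment over all 11394 tested genes and a threshold of 0.05. In DKO against WT 1 of the 32 members was higher (3.12%), beside 1.81% of all tested genes, and 0 were lower, beside 0.816%. The members' median difference was 0.33, beside -0.05 over all tested genes, and 29 of the 32 (90.6%) had a positive sign, beside 41.0% of all. The 32 include H2-Q2, H2-T24 and H2-Bl, tested only because of their DKO columns. With the filter on columns other than DKO, 26 of 29 members were positive, with a median of 0.34. The count was the same in E1KO, where 29 of the 32 were positive, beside 42.7% of all. In E2KO it was 16 of 32, beside 49.0% of all, and each of these comparisons uses the same WT columns. Without the 2-month columns the count was 17 in E1KO and 25 in DKO, with medians of 0.02 and 0.31. Without the 8-month columns it was 27 in E1KO and 31 in DKO, and without the CCl4 columns 26 and 27. In DKO the medians by class were 0.93 for the 5 class II genes, 0.67 for the 7 Q genes and 0.39 for the classical pair. They were 0.11 for both the 4 T genes and the 6 genes of B2m and peptide loading. Genes of 1 class share cells, and some share reads, so these counts are descriptions of the list.

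**Figure D1:**
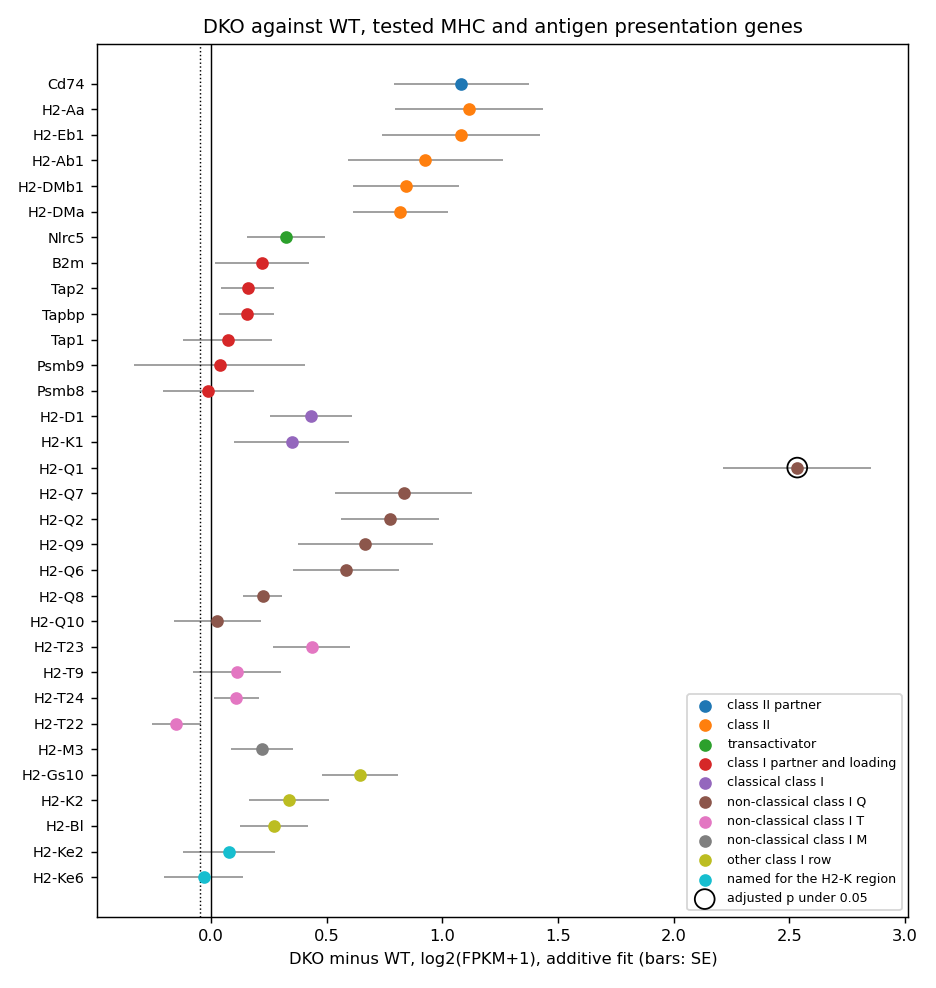
The DKO minus WT difference of each of the 32 tested members on the log2(FPKM+1) scale is plotted with its SE, grouped by class, with the median of all tested genes as a dotted line. H2-Q1 at 2.53 is circled as the member past the threshold, class II genes and Cd74 lie between 0.82 and 1.12, and the genes of B2m and peptide loading lie near 0.

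H2-Q1, a class I heavy chain gene that lies next after H2-D1 among the H2 genes in RefSeq order, was at 0.66, 2.86, 0.79 and 14.2 FPKM at 2 months, 3.89, 1.91, 0.98 and 17.4 FPKM at 8 months and 0.47, 0.23, 0.23 and 7.28 FPKM with CCl4. The DKO columns were the highest of each condition and did not overlap with any other column. They stood 21.5 times the WT value at 2 months, 4.48 times at 8 months and 15.5 times with CCl4. The difference from WT was 2.53 ± 0.32 (SE; adjusted p = 0.0106) with the same sign in 3 of 3 conditions, and that from E2KO was 3.02 ± 0.32 (SE; adjusted p = 0.0047). Leaving out all columns of 1 condition gave differences from WT of 2.20 to 2.84 with adjusted p of 0.0563 to 0.136, and the fit on the WT and DKO columns alone gave adjusted p = 0.0842. In E1KO and E2KO the gene differed from WT by 0.07 and -0.48 (adjusted p = 0.997 and 1). WT itself ranged from 0.47 to 3.89 FPKM over the conditions.

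H2-Q2, the next Q gene, was low throughout, at 0.26, 0.41, 0.28 and 1.05 FPKM at 2 months, 0.17, 0.14, 0.13 and 0.44 FPKM at 8 months and 0.33, 0.18, 0.22 and 2.32 FPKM with CCl4. All 3 DKO columns lay above the other 9. Its difference from WT was 0.77 ± 0.21 (SE; adjusted p = 0.1) and that from E2KO was 0.82 ± 0.21 (SE; adjusted p = 0.076). With a pseudocount of 0.1 in place of 1, the latter became 1.92 with adjusted p = 0.0445. H2-Q2 reached 1 FPKM only in DKO columns and was tested only because of them. Its DKO differences and their adjusted p are therefore descriptions of a gene picked for high DKO values, near the floor elsewhere.

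H2-Gs10, which RefSeq lists as a synonym of H2-Q4, was at 12.97, 14.3, 12.8 and 16.6 FPKM at 2 months, 15.6, 15.3, 10.5 and 23.4 FPKM at 8 months and 12.1, 14.04, 13.7 and 26.2 FPKM with CCl4. Its DKO columns, at 16.6 to 26.2 FPKM, also lay above the other 9, at 10.5 to 15.6 FPKM. DKO was higher than E2KO by 0.78 ± 0.17 (SE; adjusted p = 0.0453), and differed from WT by 0.64 ± 0.17 (SE; adjusted p = 0.0844). The call against E2KO was lost without any 1 condition (adjusted p = 0.158 to 0.303), without the 8-month column labelled E1KO (adjusted p = 0.0703), with no filter on low values (adjusted p = 0.0613) and with the filter on columns other than DKO (adjusted p = 0.0522).

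Against E2KO, 2 of the 32 members were higher in DKO (6.25%, beside 2.07% of all tested genes), H2-Q1 and H2-Gs10, and 0 were lower (beside 0.983%). Among the 29 members that pass the filter without the DKO columns, all 3 DKO columns lay above the other 9 in 2 (6.9%), H2-Q1 and H2-Gs10, beside 0.811% of the 11104 genes that pass it so. All 3 lay below the other 9 in 0 members, beside 1.04%. H2-Q2, which passed the filter only through its DKO columns, and H2-T10 and H2-Oa, which did not pass it, also had all 3 above. No share over all genes was taken for entries of these kinds, so they do not add to the count. H2-T10, a T-group entry listed in RefSeq as a transcribed pseudogene, was at 0.38, 0.56, 0.50 and 0.76 FPKM at 2 months, 0.56, 0.51, 0.53 and 0.90 FPKM at 8 months and 0.44, 0.51, 0.54 and 1.00 FPKM with CCl4. H2-Oa, the alpha chain of the class II regulator H2-O, was at 0.12, 0.29, 0.20 and 0.31 FPKM at 2 months, 0.23, 0.23, 0.09 and 0.68 FPKM at 8 months and 0.17, 0.30, 0.27 and 0.58 FPKM with CCl4. Its 2-month DKO column was only just above the others.

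The Qa-2 genes H2-Q6, H2-Q7, H2-Q8 and H2-Q9 code for a non-classical chain that can be held in the membrane by a lipid anchor. H2-Q7 was at 11.9, 19.4, 14.3 and 33.9 FPKM at 2 months, 16.97, 17.01, 10.98 and 15.3 FPKM at 8 months and 21.9, 19.4, 25.8 and 51.9 FPKM with CCl4, so DKO was the highest column at 2 months and with CCl4 and lay among the others at 8 months. H2-Q9 was at 4.63, 7.28, 5.96 and 9.06 FPKM at 2 months, 4.6, 5.29, 4.45 and 3.81 FPKM at 8 months and 6.10, 6.04, 9.08 and 17.5 FPKM with CCl4. DKO was again the highest at 2 months and with CCl4, and it was the lowest of the 8-month columns. H2-Q6 was at 2.38, 2.19, 2.42 and 3.25 FPKM at 2 months, 2.59, 3.08, 1.97 and 2.92 FPKM at 8 months and 4.06, 4.0, 4.91 and 11.4 FPKM with CCl4, and its DKO column with CCl4 was 2.82 times WT. The DKO differences from WT were 0.83 ± 0.30, 0.67 ± 0.29 and 0.58 ± 0.23 (SE) for H2-Q7, H2-Q9 and H2-Q6, with adjusted p of 0.18, 0.264 and 0.219, none past the threshold. H2-Q8 differed less, with DKO at 1.14 times WT at 2 months, 1.19 times at 8 months and 1.23 times with CCl4. H2-Q7 and H2-Q9 are near-identical copies, and reads of one cannot be told apart from reads of the other in values per gene.

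H2-Q10, a secreted class I chain known to be made in large amounts by the mouse liver, was at 1440.2, 1885, 1639 and 1545 FPKM at 2 months, 2065, 1553, 1812 and 1532 FPKM at 8 months and 1222, 1331, 1309.9 and 1628 FPKM with CCl4. Its columns overlapped between all genotypes, and DKO differed from WT by 0.03 ± 0.19 (SE; adjusted p = 0.955). In RefSeq order the DKO differences thus ran from 0.43 for H2-D1 to 2.53 for H2-Q1, 0.77 for H2-Q2, 0.64 for H2-Gs10, 0.58 for H2-Q6, 0.83 for H2-Q7 and 0.03 for H2-Q10. The 77 tested genes of other kinds in the stretch from Tapbp to H2-M2 had a median difference of 0.01, with 40 positive, 1 higher and 1 lower. The other 433 tested genes of chromosome 17 had a median of -0.05, with 177 positive, 7 higher and 1 lower. Over all tested genes 41.0% were positive, 1.81% higher and 0.816% lower.

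**Figure D2:**
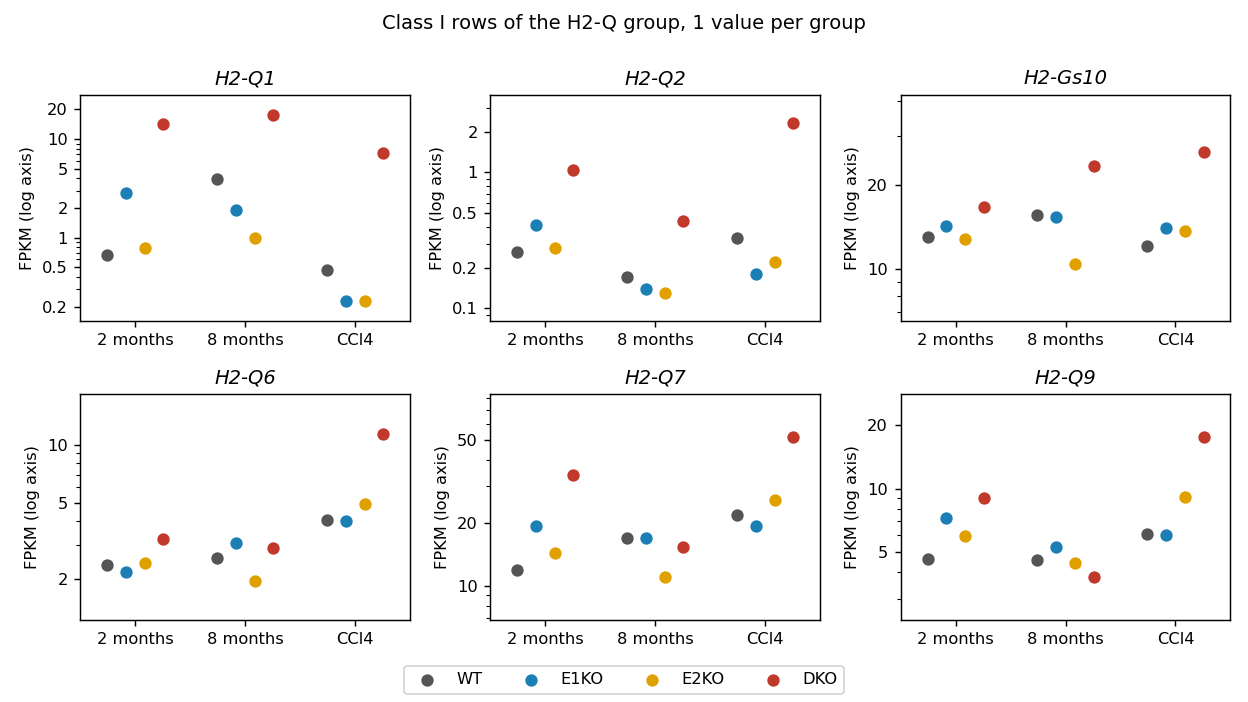
FPKM values of 6 class I genes of the Q group are plotted on log axes by condition and genotype, 1 point per group. DKO points of H2-Q1, H2-Q2 and H2-Gs10 lie above the other 9 points, while DKO at 8 months lies among or below the others for H2-Q6, H2-Q7 and H2-Q9.

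The classical heavy chains H2-K1 and H2-D1 differed less between genotypes. H2-K1 was at 710.0, 1007, 825 and 884 FPKM at 2 months, 892, 685, 679 and 744 FPKM at 8 months and 482, 482, 623 and 962 FPKM with CCl4. H2-D1 was at 236, 314, 259 and 309 FPKM at 2 months, 270.2, 227, 209 and 289 FPKM at 8 months and 268, 297, 360.1 and 472 FPKM with CCl4. DKO was the highest column of both genes with CCl4, and E1KO the highest of both at 2 months. The DKO differences from WT were 0.35 ± 0.25 (SE; adjusted p = 0.484) for H2-K1 and 0.43 ± 0.18 (SE; adjusted p = 0.235) for H2-D1, neither past the threshold. B2m, the light chain they share, was at 3335, 4875, 3956 and 3947 FPKM at 2 months, 3697, 3052, 2940.3 and 3481 FPKM at 8 months and 2423, 2326, 2930.1 and 3444 FPKM with CCl4, with overlapping genotypes and a DKO difference of 0.22 ± 0.20 (SE; adjusted p = 0.596).

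Among the T and M groups, H2-T23 codes for the Qa-1 chain, a ligand of the NKG2A receptor. It was at 109, 162, 117 and 154 FPKM at 2 months, 99.6, 97.2, 86.9 and 114 FPKM at 8 months and 112, 104, 133 and 172 FPKM with CCl4, with a DKO difference from WT of 0.44 ± 0.17 (SE; adjusted p = 0.213). H2-T22, a ligand of some gamma-delta T cells, had the opposite sign at -0.15 ± 0.11 (SE; adjusted p = 0.483). H2-T9, H2-T24 and H2-M3 ranged over 18.7 to 39.5 FPKM, 0.57 to 1.08 FPKM and 0.95 to 2.96 FPKM, with DKO differences of 0.11, 0.11 and 0.22. The other 11 M entries did not reach 1 FPKM in any column, and H2-M1, H2-M10.1 and H2-M10.5 were listed at 0 in all 12. The low T entries H2-T10 and H2-T3 ranged over 0.38 to 1.00 FPKM and 0.01 to 0.05 FPKM, and H2-M2 over 0.01 to 0.59 FPKM.

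The genes that make and load the peptides did not pass the threshold between genotypes. Tap1 and Tap2 pair to form the peptide transporter. Tap1 was at 7.31, 8.57, 7.35 and 6.56 FPKM at 2 months, 7.23, 6.52, 4.0 and 6.53 FPKM at 8 months and 6.69, 10.3, 9.59 and 9.74 FPKM with CCl4. Tap2 was at 8.53, 11.2, 8.66 and 10.2 FPKM at 2 months, 8.10, 8.90, 6.69 and 8.22 FPKM at 8 months and 9.71, 11.7, 12.6 and 11.6 FPKM with CCl4. Tapbp, which codes for tapasin, was at 25.8, 33.1, 24.9 and 27.6 FPKM at 2 months, 23.5, 20.8, 22.3 and 25.9 FPKM at 8 months and 32.1, 37.3, 35.99 and 37.95 FPKM with CCl4. The genotypes overlapped in all 3, and the DKO differences from WT were 0.07, 0.16 and 0.16 for Tap1, Tap2 and Tapbp (adjusted p = 0.871, 0.485 and 0.514).

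Psmb8 and Psmb9 are catalytic subunits of the immunoproteasome, the form of the proteasome that interferon favours. Psmb8 was at 22.1, 33.5, 21.5 and 24.6 FPKM at 2 months, 19.5, 18.4, 11.6 and 17.4 FPKM at 8 months and 39.1, 48.5, 51.3 and 38.5 FPKM with CCl4. Psmb9 was at 21.98, 38.2, 23.9 and 32.99 FPKM at 2 months, 27.99, 21.5, 9.39 and 26.6 FPKM at 8 months and 37.2, 41.9, 48.9 and 28.4 FPKM with CCl4. With CCl4, Psmb9 was lowest in DKO, while at 2 months DKO was above WT. Their DKO differences were -0.01 ± 0.20 (SE; adjusted p = 0.984) and 0.04 ± 0.37 (SE; adjusted p = 0.968). Nlrc5, the class I transactivator, was at 1.41, 1.26, 1.67 and 1.44 FPKM at 2 months, 1.27, 1.73, 0.82 and 2.32 FPKM at 8 months and 0.33, 0.58, 0.44 and 0.77 FPKM with CCl4, with DKO the highest column at 8 months and with CCl4 and a difference from WT of 0.33 ± 0.17 (SE; adjusted p = 0.34).

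Class II genes and Cd74, the invariant chain that guards the class II groove, were lowest in WT at 2 months and with CCl4. Their order was the same in all 12 columns, from Cd74 through H2-Aa, H2-Ab1, H2-Eb1 and H2-DMa to H2-DMb1. Summed over the 10 class II genes and Cd74, the columns held 77.1, 203, 136 and 125 FPKM at 2 months, 117, 132, 93.1 and 207 FPKM at 8 months and 91.6, 169, 170.1 and 305 FPKM with CCl4. At 2 months the highest column was E1KO, and at 8 months and with CCl4 it was DKO. In bulk liver, more cells that carry class II and more class II RNA per cell cannot be told apart.

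Cd74 was at 35.4, 82.9, 56.1 and 53.3 FPKM at 2 months, 43.8, 52.1, 39.3 and 83.1 FPKM at 8 months and 36.3, 65.4, 67.8 and 125 FPKM with CCl4. H2-Aa, the alpha chain of the class II molecule A, was at 16.8, 48.4, 29.8 and 29.5 FPKM at 2 months, 27.1, 29.1, 21.2 and 48.1 FPKM at 8 months and 22.9, 42.6, 44.5 and 80.01 FPKM with CCl4. Its beta chain H2-Ab1 was at 13.4, 39.2, 27.9 and 21.5 FPKM at 2 months, 26.1, 28.2, 18.7 and 39.7 FPKM at 8 months and 17.3, 30.6, 30.4 and 52.7 FPKM with CCl4. In each of these 3 genes DKO was above WT in 3 of 3 conditions, yet at 2 months E1KO was above DKO. H2-Eb1, the beta chain of the class II molecule E, was at 7.73, 23.2, 16.6 and 13.9 FPKM at 2 months, 14.5, 16.7, 10.2 and 25.9 FPKM at 8 months and 8.96, 15.01, 16.3 and 30.9 FPKM with CCl4. Its partner gene is listed as a pseudogene, H2-Ea-ps, at 0 to 0.03 FPKM. H2-DMa and H2-DMb1 form the H2-DM molecule that exchanges peptides on class II. H2-DMa was at 2.26, 5.83, 3.10 and 4.49 FPKM at 2 months, 2.91, 3.11, 2.19 and 4.71 FPKM at 8 months and 3.86, 9.90, 7.26 and 9.86 FPKM with CCl4. H2-DMb1 was at 1.04, 2.86, 1.89 and 1.82 FPKM at 2 months, 1.76, 2.04, 1.26 and 3.97 FPKM at 8 months and 1.95, 4.74, 2.89 and 5.85 FPKM with CCl4. With CCl4, E1KO stood near DKO for H2-DMa.

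The DKO differences from WT were 1.12 ± 0.32 (SE) for H2-Aa, 1.08 ± 0.29 for Cd74, 1.08 ± 0.34 for H2-Eb1 and 0.93 ± 0.34 for H2-Ab1. They were 0.84 ± 0.23 for H2-DMb1 and 0.82 ± 0.21 for H2-DMa. No adjusted p passed the threshold, and they ran from 0.0817 for H2-DMa to 0.187 for H2-Ab1. Ciita and the class II entries H2-Oa, H2-Ob, H2-DMb2, H2-Eb2 and H2-Ea-ps were not tested, as they stayed below 1 FPKM. Ciita, the master regulator of class II, was at 0.10, 0.13, 0.07 and 0.08 FPKM at 2 months, 0.07, 0.14, 0.07 and 0.17 FPKM at 8 months and 0.09, 0.15, 0.15 and 0.20 FPKM with CCl4. H2-Ob, the other chain of H2-O, ranged over 0.07 to 0.59 FPKM.

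**Figure D3:**
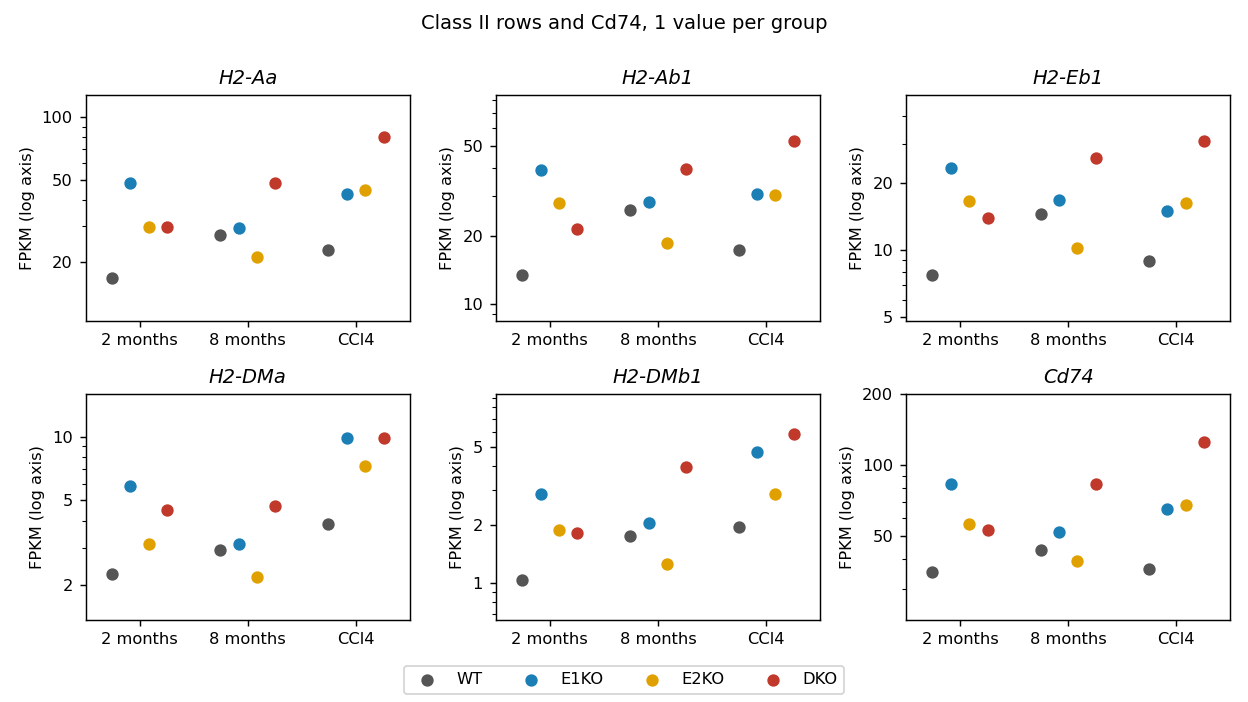
FPKM values of 5 class II genes and Cd74 are plotted on log axes by condition and genotype, 1 point per group. WT points are the lowest at 2 months and with CCl4, E1KO points the highest at 2 months, and DKO points the highest at 8 months.

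With a single loss, 0 of the 32 members passed the threshold. For E1KO against WT limma called 0 (beside 0.0176% of all tested genes), and 6 members (18.8%) had an unadjusted p under 0.05, beside 5.62% of all. Without the 8-month column labelled E1KO, limma called 0, 5 had an unadjusted p under 0.05 and 26 were positive. The class II median in E1KO was 0.78, or 0.93 without that column, with H2-Aa at 0.81 ± 0.32 (SE; adjusted p = 0.871) and Cd74 at 0.76 ± 0.29 (SE; adjusted p = 0.871). Without it, these genes were at 0.99 and 0.89 (adjusted p = 0.699 and 0.734). For E2KO against WT limma called 0 (beside 0.0% of all tested genes), and 0 members had an unadjusted p under 0.05, beside 1.36% of all. The E2KO class II median was 0.44. Cd74 differed by 0.46 ± 0.29 (SE; adjusted p = 1) in E2KO.

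Whether the DKO difference departs from the sum of the single differences was tested as DKO - E1KO - E2KO + WT. Of the 32 members limma called 0 (beside 0.0351% of all tested genes), and 4 members (12.5%) had an unadjusted p under 0.05, beside 6.81% of all. H2-Q1 stood at 2.95 ± 0.45 (SE; adjusted p = 0.119). The class II median was -0.16 and Cd74 stood at -0.14 ± 0.41 (SE; adjusted p = 0.979). Without the 8-month column labelled E1KO limma called 0 and 5 had an unadjusted p under 0.05. H2-Q1 was then at 2.78 ± 0.49 (SE; adjusted p = 0.341), the class II median at -0.33 and Cd74 at -0.27 (adjusted p = 0.999).

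Within a condition each comparison is of 2 single values, and a gene was counted when log2(FPKM+1) differed by at least 1, with no test. In DKO with CCl4, 12 of 32 members (37.5%) were that far above WT, beside 2.93% of all tested genes, and 0 were that far below, beside 2.47%. In the same 2 columns the hepatocyte sum was 10849 FPKM in WT and 20149 FPKM in DKO and the macrophage sum 839 and 1496 FPKM, and their part in the count was not tested. The 12 were Cd74, H2-Aa, H2-Ab1, H2-Eb1, H2-DMa, H2-DMb1, H2-Q1, H2-Q2, H2-Q6, H2-Q7, H2-Q9 and H2-Gs10. Of these, H2-Q2 was tested only through its DKO columns. At 2 months the members that far above WT were H2-Q1 and H2-Q7 (6.25%, beside 1.99% of all), and at 8 months H2-Q1 (3.12%, beside 2.86%). No member was that far below WT in DKO at 2 or 8 months, beside 1.48% and 1.22% of all.

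E1KO at 2 months had 6 of 32 members that far above WT (18.8%, beside 1.09% of all), namely Cd74, H2-Aa, H2-Ab1, H2-Eb1, H2-DMa and H2-Q1. E1KO had 0 at 8 months (beside 0.843%) and 1 with CCl4, H2-DMa (3.12%, beside 1.2%). E2KO had H2-Ab1 and H2-Eb1 at 2 months (6.25%, beside 0.395%), 0 at 8 months (beside 1.38%) and 0 with CCl4 (beside 0.421%). E2KO at 8 months also had H2-Q1 and Psmb9 that far below WT (6.25%, beside 1.42%). All 3 genotypes of a condition are compared with the same WT column, so a low WT value raises each of them.

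A change of the DKO difference between conditions was tested in a second fit, where it is taken from the mean of WT, E1KO and E2KO. For 8 months against 2 months limma called 0 of 32 members (beside 0.246% of all tested genes), and 2 (6.25%) had an unadjusted p under 0.05, beside 4.32%. For CCl4 against 2 months it called 0 (beside 0.29%), and 3 (9.38%) had an unadjusted p under 0.05, beside 9.19%. The class II median of this change was 0.89 for 8 months and 1.14 for CCl4, and Cd74 with CCl4 stood at 1.23 ± 0.44 (SE; adjusted p = 0.45). Without the 8-month column labelled E1KO, the class II median for 8 months was 0.76. In that fit 0 members had an unadjusted p under 0.05 for 8 months. H2-Q1 stood at -0.15 ± 0.72 (SE; adjusted p = 1) for 8 months and at -0.09 ± 0.72 (SE; adjusted p = 0.988) for CCl4. The 12 members past a log2 difference of 1 in DKO with CCl4 are thus not shown to differ from the other conditions.

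Between conditions, H2-T22 rose and H2-K2 fell with CCl4 in all 4 genotypes, the members with the largest change in each direction. Against 2 months, 7 of the 32 members were higher with CCl4 (21.9%, beside 33.4% of all tested genes) and 8 were lower (25.0%, beside 24.5%). Each of the 15 had the same sign in 4 of 4 genotypes. The 8 include H2-Bl, tested only through its 2-month columns, and H2-K2 and Nlrc5, which reached 1 FPKM only in untreated columns.

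H2-T22 was at 7.76, 5.16, 6.64 and 6.88 FPKM at 2 months, 6.29, 5.99, 6.16 and 5.52 FPKM at 8 months and 17.1, 16.6, 17.4 and 15.5 FPKM with CCl4, so all CCl4 columns lay above all others, with a difference of 1.22 ± 0.09 (SE; adjusted p = 3.32e-05). Of the higher genes, H2-Q6 differed by 0.89, H2-DMa by 0.81, Psmb8 by 0.79, H2-DMb1 by 0.70, H2-M3 by 0.61 and Tapbp by 0.36. H2-M3, which presents N-formylated peptides, was at 1.08, 1.19, 1.09 and 1.33 FPKM at 2 months, 1.39, 0.95, 1.00 and 1.74 FPKM at 8 months and 1.93, 2.96, 1.86 and 2.60 FPKM with CCl4. Tapbp did not pass the threshold under median-of-ratios scaling (0.24, adjusted p = 0.0779).

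H2-K2, listed in RefSeq as a transcribed pseudogene and lying beside H2-K1, was at 2.07, 3.41, 2.60 and 4.55 FPKM at 2 months, 10.5, 7.24, 7.62 and 10.2 FPKM at 8 months and 0.23, 0.21, 0.25 and 0.41 FPKM with CCl4. Its conditions did not overlap, with a change of -1.67 ± 0.15 (SE; adjusted p = 6.4e-05) with CCl4 and of 1.27 ± 0.15 (SE; adjusted p = 0.00482) at 8 months. H2-K1 differed by -0.48 ± 0.21 (SE; adjusted p = 0.0871) with CCl4 and -0.19 ± 0.21 (SE; adjusted p = 0.659) at 8 months, and its CCl4 difference was -0.60 under median-of-ratios scaling, past the threshold (adjusted p = 0.0442). H2-Q8 was at 10.7, 9.01, 9.22 and 12.2 FPKM at 2 months, 16.5, 16.6, 15.7 and 19.6 FPKM at 8 months and 5.67, 5.06, 6.02 and 6.96 FPKM with CCl4, again with no overlap between conditions. It changed by -0.70 ± 0.07 (SE; adjusted p = 0.000102) with CCl4 and by 0.69 ± 0.07 (SE; adjusted p = 0.00306) at 8 months.

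These were the 2 of 32 members higher at 8 months than at 2 months (6.25%, beside 2.7% of all tested genes), and 0 were lower, beside 1.59%. The rise of H2-K2 had adjusted p = 0.0607 without the CCl4 columns. Each condition came from other animals, so a difference between conditions cannot be told apart from one between those animals.

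**Figure D4:**
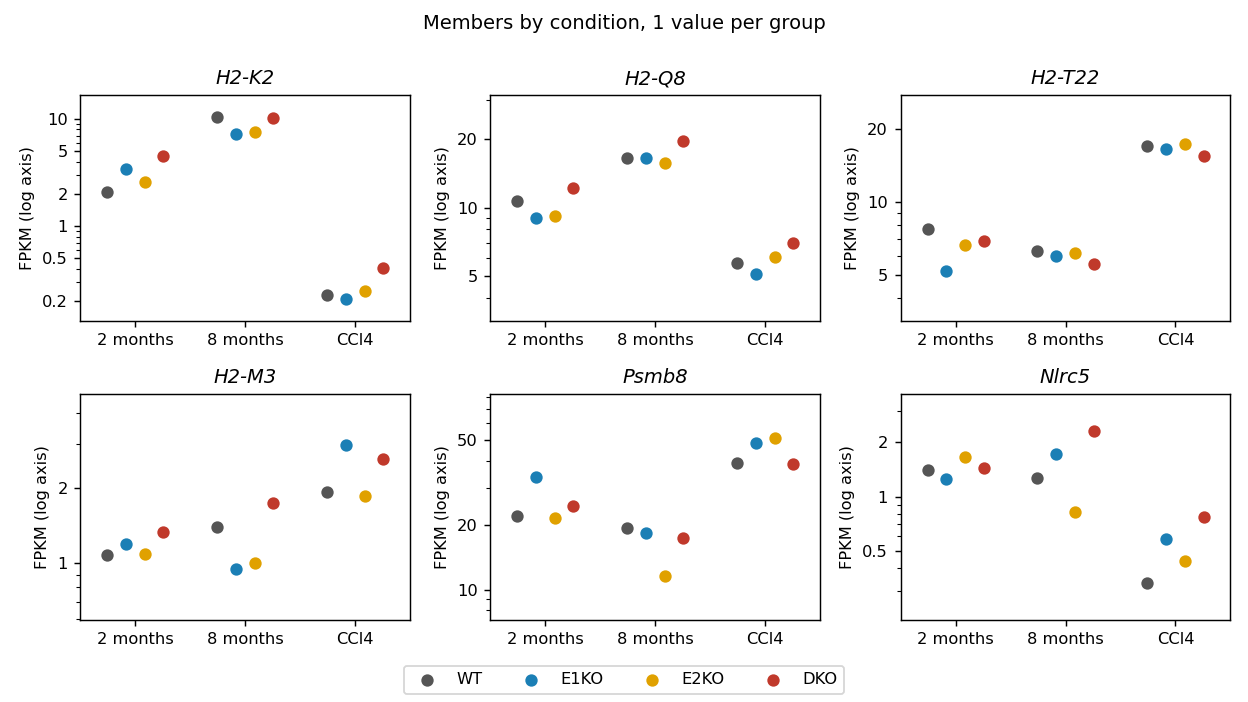
FPKM values of 6 members are plotted on log axes by condition and genotype, 1 point per group. The conditions of H2-K2 and H2-Q8 occupy separate ranges whatever the genotype, CCl4 points of H2-T22 lie above the others, and CCl4 points of Nlrc5 below them.

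Nlrc5 was lower with CCl4, with a difference of -0.68 ± 0.15 (SE; adjusted p = 0.00388). So was B2m, with a difference of -0.54 ± 0.18 (SE; adjusted p = 0.0277), but its adjusted p was 0.0620 without the 8-month columns and 0.153 with no filter on low values. H2-Q1 was also lower with CCl4, with a difference of -0.81 ± 0.28 (SE; adjusted p = 0.0331), and lost that call with no filter (adjusted p = 0.0620). H2-Bl, listed in RefSeq as a transcribed pseudogene, was at 0.56, 1.10, 0.39 and 1.32 FPKM at 2 months, 0.33, 0.38, 0.36 and 0.55 FPKM at 8 months and 0.26, 0.24, 0.26 and 0.28 FPKM with CCl4, with a CCl4 difference of -0.52 ± 0.13 (SE; adjusted p = 0.00767). H2-Bl reached 1 FPKM only in the E1KO and DKO columns at 2 months, so it was tested only through them. Its CCl4 difference and adjusted p are therefore descriptions of a gene picked for high 2-month values. The 2 entries named for the H2-K region are no MHC genes. H2-Ke2, a prefoldin subunit gene (Pfdn6 in RefSeq), was at 81.4, 125, 86.8 and 111 FPKM at 2 months, 106, 80.7, 70.4 and 92.8 FPKM at 8 months and 59.6, 55.6, 68.1 and 58.9 FPKM with CCl4. H2-Ke6, a hydroxysteroid dehydrogenase gene, was at 69.02, 85.7, 84.3 and 66.5 FPKM at 2 months, 109, 85.6, 91.1 and 78.8 FPKM at 8 months and 48.5, 51.8, 60.6 and 65.5 FPKM with CCl4. Both were lower with CCl4, with differences of -0.71 ± 0.17 (SE; adjusted p = 0.00721) and -0.43 ± 0.15 (SE; adjusted p = 0.0356).

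Other genes of the pathway were counted from lists drawn up from general knowledge. Over all tested genes, 1.81% were higher in DKO against WT, 0.816% were lower and 41.0% had a positive sign. In DKO against WT, 0 passed the threshold among 8 further loading and chaperone genes (median -0.11), 3 constitutive proteasome subunits (-0.11), 5 class II processing genes (0.25), 7 MHC transcription factors (-0.02) and 8 tested interferon-gamma pathway genes (-0.01). Of 29 tested interferon-stimulated genes 1 was higher and 0 were lower, with a median of 0.32 and 24 positive. It was Gbp2, an interferon-induced GTPase, at 0.68 ± 0.14 (SE; adjusted p = 0.0451). Of 6 class I-like genes outside H2, 1 was lower, Cd1d2, at -2.12 ± 0.36 (SE; adjusted p = 0.0262). With CCl4, 4 of the 5 class II processing genes and 3 of the 8 loading genes were higher than at 2 months, beside 33.4% of all tested genes.

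Markers of cells that carry class II moved with the class II values in part. Summed over 19 macrophage genes, the columns held 292, 409.6, 252 and 386 FPKM at 2 months, 174, 179, 199.6 and 522 FPKM at 8 months and 839, 1609, 876 and 1496 FPKM with CCl4. The sum was above WT in DKO of every condition, by 1.32, 3.00 and 1.78 times, but with CCl4 it was highest in E1KO, where class II was not. Without Spp1, left out after its values were seen, the ratios were 1.28, 1.75 and 1.84. All 19 had a positive difference from WT in DKO (median 0.47; 41.0% of all tested genes were positive) and in E1KO (median 0.34; 42.7% of all). With CCl4 15 of the 19 were higher than at 2 months, beside 33.4% of all tested genes.

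Summed over 10 dendritic cell genes the columns held 1.92 to 5.61 FPKM, highest in DKO with CCl4, and over 10 B cell genes 1.40 to 5.72 FPKM, highest in DKO at 8 months. The 1 dendritic and the 2 B cell genes abundant enough to test did not pass the threshold in DKO. The sum over 13 T and NK cell genes was 1.92 to 6.71 FPKM and was above WT in DKO of all conditions. Of the T and NK cell genes only Nkg7, a cytotoxic granule gene, was abundant enough to test, and it was higher in DKO by 0.90 ± 0.16 (SE; adjusted p = 0.0301). Of the macrophage, dendritic, B, T and NK cell markers, Ncr1 was the only one listed at 0 in any column, in WT and E1KO at 8 months. Of 8 endothelial genes 0 passed the threshold in DKO (median -0.05), and of 11 hepatocyte genes also 0 (median 0.0015). The DKO difference of the hepatocyte genes was more positive with CCl4 than at 2 months in 11 of 11 (median change 0.81, with 0 past the threshold). The part of these cells in the class II and Q-group values was not tested.

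**Figure D5:**
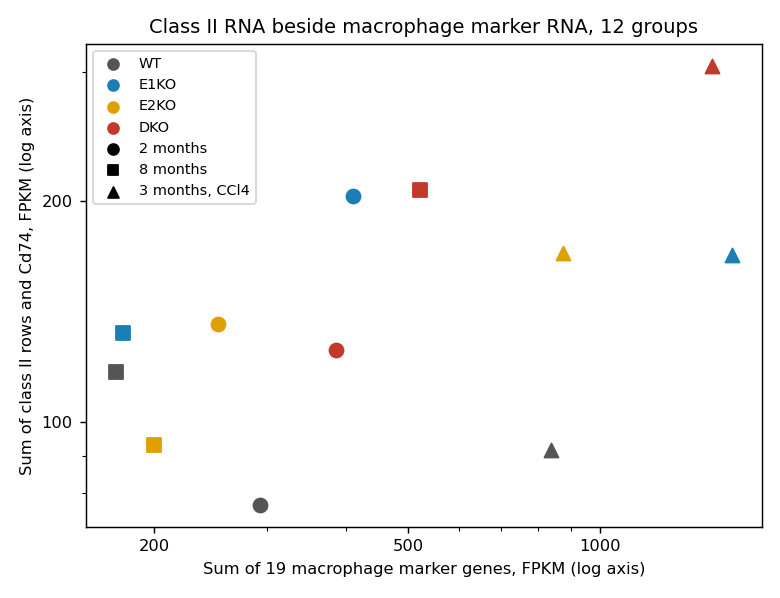
The summed FPKM of the class II genes and Cd74 is plotted against the summed FPKM of 19 macrophage marker genes on log axes, 1 point per group, with color for genotype and shape for condition. DKO with CCl4 has the highest class II sum, 305 FPKM, while E1KO with CCl4 has the highest macrophage sum, and WT with CCl4 has a class II sum of 91.6 FPKM at a macrophage sum of 839 FPKM.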

How the data were processed

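Liver RNA-seq of 12 groups was used, and the 9 ChIP-seq samples of the series were not analysed here. Libraries were made with the TruSeq kit from total RNA, per the labels. The authors deposited 1 table of FPKM values to 2 decimals, with 1 column per group. The way replicates were combined into a column is not stated in the labels. CASAVA, TopHat and Cufflinks are named in the submitters' processing notes with the mm9 assembly, without versions. The table gives no read counts, so depth is unknown and counting error cannot be stated; column totals ran from 531761 to 674119 FPKM.

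Tests covered the 11394 of 22520 genes that reached 1 FPKM in 2 or more columns. Values were used as log2(FPKM+1), on which fold changes of low genes are understated. The linear models of limma 3.58.1 (R 4.3.3; variances moderated by eBayes along the mean-expression trend) were fitted with additive genotype and condition terms and 6 residual degrees of freedom, then with DKO-by-condition terms and 4. The error term is how far the 12 values depart from the model, so it is no measure of spread between animals. P-values were two-sided, with Benjamini-Hochberg adjustment over all tested genes at 0.05. The fits were tested on simulated data.

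The members, gene lists and tests were chosen with earlier results of these data known, and the RefSeq windows, the genes nearby on chromosome 17, the separation of DKO from the other columns, the DKO to WT ratios of list sums and the macrophage sum without Spp1 were added after the values were seen. Full values were given for the classical class I, loading, transactivator and main class II genes, and for each other H2- entry past the threshold in a comparison or at least 1 (log2) apart between WT and DKO in a condition. H2-T23, H2-Q10, H2-T10 and H2-Oa were added after their values were seen. Alternatives were a pseudocount of 0.1, no filter, a filter on columns other than DKO, median-of-ratios scaling, limma without the trend, and fits without each condition, without the 8-month column labelled E1KO, or on WT and DKO alone. Gene symbols were matched to RefSeq tables of GRCm38.p6 by name. The test of a single marker gene is not reported here.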

Additional observations from a re-analysis of the deposited data

How the results depend on the processing

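With 1 value per group, the 3 conditions stand in for replicates, and no result has a check between animals. No paired analysis was possible because each group has 1 column and no replicate numbers to pair, while the condition terms of the fits already compare genotypes within a condition. In DKO against WT 1 member passed the threshold, and the number was 2 with no filter on low values (H2-Q1 and H2-T10), 0 on the WT and DKO columns alone and 0 to 0 without each condition in turn. In DKO against E2KO 2 passed, and the number was 1 with the filter on columns other than DKO, 1 without the 8-month column labelled E1KO and 0 to 1 without each condition. At 8 months against 2 months 2 passed, and 1 without the CCl4 columns. On the WT and DKO columns alone, a fit chosen for these comparisons after the data were seen, 0 passed at 8 months and 7 with CCl4, where 15 passed on all columns. H2-Q1 in DKO against WT kept adjusted p of 0.0106 to 0.0208 under the other alternatives. H2-Q1 against E2KO had adjusted p = 0.0802 without the CCl4 columns.

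Leaving out a condition turned the sign of DKO against WT for 7 genes with small differences. Without each condition in turn, the differences were -0.10 to 0.22 for H2-Ke2, -0.26 to 0.19 for H2-Ke6, -0.16 to 0.26 for H2-Q10, -0.052 to 0.24 for H2-T9, -0.091 to 0.065 for Psmb8, -0.22 to 0.25 for Psmb9 and -0.13 to 0.18 for Tap1. The cause was not tested. H2-Ke6 lost its CCl4 call with no filter (adjusted p = 0.0508). Cd74 in the additivity test ran from -0.62 to 0.43 without each condition in turn. Median-of-ratios scaling and the test without a trend turned no sign of a result given here.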

Other observations

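Cd1d2, a lipid-presenting class I-like gene outside the H2 region, separated the columns by the Ezh1 label. It was at 3.26, 0, 4.65 and 0.02 FPKM at 2 months in WT, E1KO, E2KO and DKO. The values were 6.01, 0.04, 1.27 and 0.05 FPKM at 8 months and 2.03, 0.08, 1.15 and 0.03 FPKM with CCl4. The 6 columns labelled Ezh1-/- thus lay at 0 to 0.08 FPKM and the other 6 at 1.15 to 6.01 FPKM, and the 8-month column labelled E1KO, in which Ezh1 was at 43.1% of WT, lay with the former. In E1KO against WT its difference was -2.11 ± 0.36 (SE), and limma's adjusted p = 0.271. The gene was singled out after its values were seen.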
